A study of Homo sapiens with 3 samples.

Results

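H1975 is an established human lung adenocarcinoma line that carries a mutant epidermal growth factor receptor gene, EGFR. The baseline transcriptome of this line was read from the library made after transfection with the control siRNA, siNC, which was 1 of 3 libraries in the study. The other libraries, siHHLA3-1 and siHHLA3-3, came from cells transfected with siRNAs against HHLA3, and no comparison was made with them. siNC cells were transfected at about 70% confluency, kept for 6 h without serum and then for 24 h in medium with 10% serum before total RNA was taken. The labels give the tissue as lung cancer. No untransfected library was analysed, so all levels are those of transfected cells, and there was no replicate and no test. The library held 32813003 reads, and the deposited table listed 16662 genes, in which 32712912 of these reads were counted.

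Lung adenocarcinomas resemble, to a varying degree, the alveolar and distal airway epithelium from which they arise. The transcription factor NKX2-1 holds the distal lung programme, whose end products are the surfactant proteins. In EGFR-mutant tumours the receptor tyrosine kinase EGFR signals through RAS, RAF and MAP kinases and through PI3K and AKT to drive growth. Epithelial cells also carry a cell-intrinsic antiviral system, in which sensors of nucleic acid lead to interferon production. Interferon in turn acts through a complex of transcription factors that holds STAT2 and IRF9 and binds the interferon-stimulated response element (ISRE) in the promoters of interferon-stimulated genes.

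Levels are given as the authors' TPM, a read count divided by the length of the gene and scaled to a common sum, so that genes can be compared with each other. Ranges in brackets are exact 95% Poisson intervals of the count, scaled to TPM, and cover counting error only. Of the listed genes, 16235 (97.4%) had at least 1 TPM, 9163 (55.0%) at least 10 TPM and 1547 (9.28%) at least 100 TPM, and these percentages are the background for the counts below. Members of the gene lists were chosen with earlier results of these data known, so counts within a list describe the chosen members only. The median listed gene had 12.7 TPM and 561 reads, and the quartiles were 3.50 and 37.7 TPM. Protein-coding genes had a median of 21.3 TPM, and 12020 of the 19951 in the GENCODE 29 annotation (60.2%) had a row. Of these 12020, 8421 (70.1%) had at least 10 TPM and 1476 (12.3%) at least 100 TPM. Lists of protein-coding genes are to be read against these higher shares. The smallest sum over the 3 libraries of a gene's FPKM, another per-length scale, was 1.00, worth a mean of 1.17 TPM per library. The 97.4% at 1 TPM therefore largely reflects which genes have a row. Being listed rests on all 3 libraries, not on siNC alone, and a gene without a row has no level here and is not a measured 0. At the low end, 517 listed genes had up to 3 reads and 63 of these had 0, which allows a level of up to 0.0914 CPM (reads scaled to the library total). Among these 63, 24 were microRNA genes and 13 were small nuclear RNA genes.

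The most abundant transcripts came from the mitochondrial genome. The 10 highest genes were all mitochondrially encoded, led by the cytochrome c oxidase subunits MT-CO3 (46497 TPM), MT-CO2 (34940 TPM) and MT-CO1 (34396 TPM), and they held 21.2% of the TPM. They were followed by the complex I subunit MT-ND4 at 22191 TPM and the ATP synthase subunit MT-ATP6 at 19528 TPM. The 19 listed mitochondrial genes together took 23.8% of the TPM and 6.24% of the reads, and 14.7% when reads were divided by the length of the coding transcript in place of all exons of a gene. MTATP6P1, a nuclear pseudogene copy of MT-ATP6, stood at 4737 TPM, and reads of this pair cannot be assigned with certainty.

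Outside the mitochondrial genome, the highest gene was TMSB10, which encodes the actin-binding thymosin beta 10, with 7455 TPM (7374 to 7537) from 32235 reads. S100A6, a calcium-binding protein, followed with 6262 TPM. The cytoskeletal actins ACTG1 (4625 TPM) and ACTB (4178 TPM), the ribosomal protein gene RPS2 (4119 TPM) and the ubiquitin-like protein gene ISG15 (3478 TPM) came next among nuclear genes, apart from that pseudogene. The top was completed by S100A11 (3477 TPM), the elongation factor EEF2 (2837 TPM), the glycolytic enzyme GAPDH (2614 TPM) and S100A10 (2522 TPM). Per coding transcript the order changed: RPS2 had 6143 TPM, ACTB 5894 TPM, S100A6 5559 TPM and ACTG1 5111 TPM, and TMSB10 stood below them at 4263 TPM. The leading nuclear genes in deposited TPM belonged to the cytoskeleton, the S100 family, translation and glycolysis, with 1 interferon-stimulated gene among them.

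By family, 82 of 84 cytosolic ribosomal protein genes were listed, with a median of 491 TPM, and took 5.38% of the TPM. Heat shock proteins and chaperonin subunits took 1.30%, led by HSP90AA1 (2351 TPM) and the small heat shock protein HSPB1 (2327 TPM). The S100 family took 1.29% with 12 of 19 genes listed, and translation factors took 1.21%. The iron storage subunits FTH1 (2512 TPM) and FTL (1002 TPM) took 0.351%, and 5 of 11 metallothioneins, which bind zinc and copper, took 0.310%, of which MT2A stood at 2236 TPM. The profile was concentrated in few genes: 337 genes held 50% of the TPM, and 867 genes did so when mitochondrial genes were left out.

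**Figure D1:**
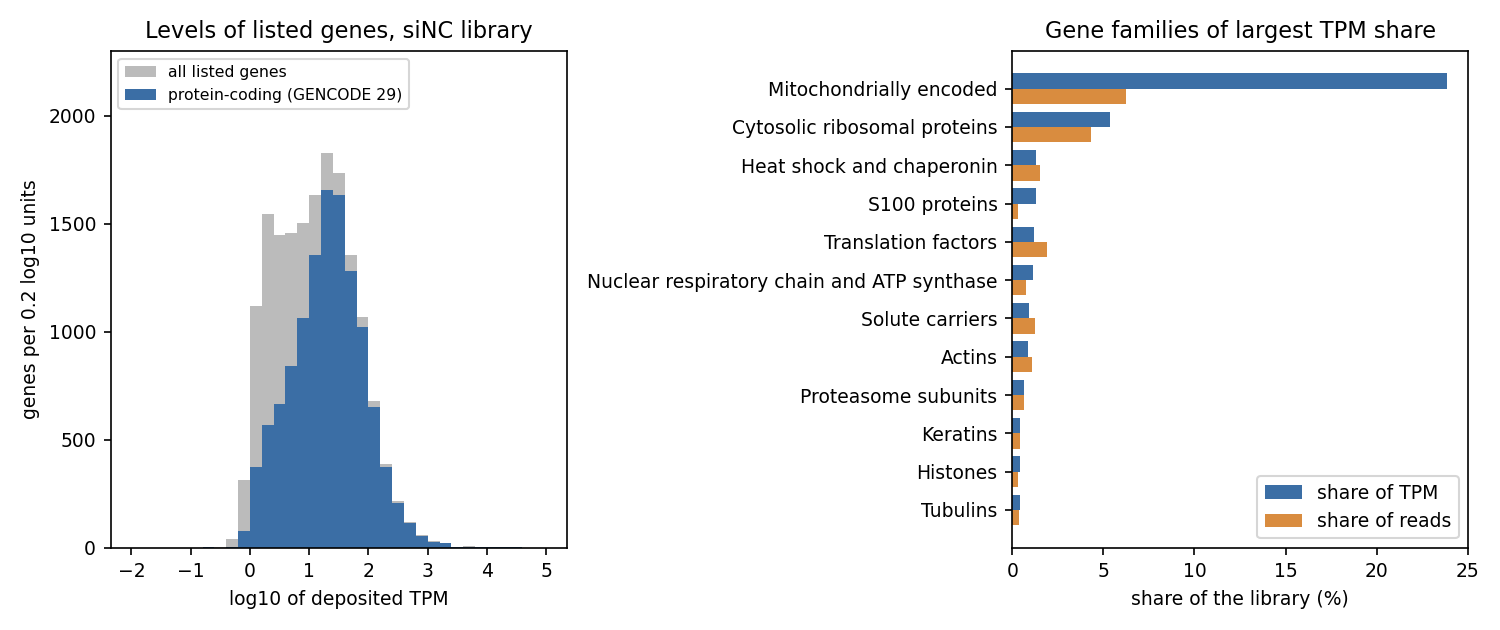
Left, number of genes (vertical axis) by log10 of the deposited TPM in bins of 0.2, for all listed genes and for protein-coding genes. Right, share of the library (percent) held by the 12 gene families of largest TPM share, as TPM and as reads; mitochondrially encoded genes held 23.8% of the TPM and 6.24% of the reads.

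Epithelial genes were abundant. Of 29 epithelial keratin, junction and splicing genes, 27 were listed, 24 had at least 10 TPM and 16 had at least 100 TPM. The median was 131 TPM, against 12.7 TPM over all listed genes and 21.3 TPM over listed protein-coding genes. KRT19 and KRT7, keratins of simple epithelia, stood at 1671 TPM (1654 to 1688) and 1627 TPM (1614 to 1640), and their intervals did not overlap. Per coding transcript their order turned, with KRT7 at 2282 TPM and KRT19 at 1727 TPM. KRT18 (448 TPM) and KRT8 (439 TPM), which pair in simple epithelia, were next among the keratins, and per coding transcript KRT8 had 1101 TPM. The adhesion molecule EPCAM had 601 TPM, the tight junction protein CLDN4 424 TPM, and E-cadherin, CDH1, 281 TPM. The splicing regulators ESRP1 (152 TPM) and ESRP2 (73.7 TPM), which maintain epithelial splice forms, were also present. The lowest listed members were CTNND1 at 3.08 TPM, CLDN1 at 4.17 TPM, MUC1 at 9.38 TPM and OCLN at 10.4 TPM, while KRT20 and RAB25 had no row.

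Of 19 mesenchymal genes, 11 were listed and 9 had at least 10 TPM, with matrix genes the most abundant. TGFBI, a secreted matrix protein, stood at 1736 TPM (1726 to 1745), tenascin C, TNC, at 344 TPM, SPARC, another matrix protein, at 203 TPM and fibronectin, FN1, at 82.5 TPM. The intermediate filament vimentin, VIM, had 28.2 TPM, with 24.4% of its exonic bases shared with an antisense gene. Of the transcription factors of the mesenchymal transition, SNAI1 had 92.5 TPM and SNAI2 12.5 TPM, whereas ZEB1, ZEB2, TWIST1 and TWIST2 had no row, and neither had N-cadherin, CDH2, nor the protease MMP2. The lowest listed members were the collagen cross-linking enzyme LOX (1.56 TPM) and the actin-binding TAGLN (1.53 TPM). Integrins had 18 of 26 genes listed, led by ITGA5 (314 TPM) and ITGA3 (307 TPM), and laminins had 7 of 12, led by LAMB3 (523 TPM). Collagens had 12 of 44 genes listed with a median of 4.75 TPM, and the highest was the hemidesmosomal COL17A1 at 112 TPM.

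Of the alveolar type II list, the regulator NKX2-1 and some metabolic genes had a row, but the SFTP surfactant genes had none. NKX2-1 had 71.0 TPM (68.0 to 74.1) from 2107 reads, above 86.1% of listed genes. LPCAT1, an acyltransferase of surfactant lipid synthesis, had 231 TPM, the lysosomal membrane protein LAMP3 57.9 TPM and the lipid transporter ABCA3 20.3 TPM. SFTA3 had 6.14 TPM (15.2 TPM per coding transcript), the protease NAPSA 4.50 TPM and CEBPA 3.53 TPM. SFTA3 and CEBPA share 31.6% and 43.4% of their exonic bases with another gene. The surfactant genes SFTPA1, SFTPA2, SFTPB, SFTPC and SFTPD and the phosphate transporter SLC34A2 had no row. Thus 8 of 17 genes (47.1%) of the alveolar type II and terminal respiratory unit list were listed, with a median of 15.7 TPM. Both values were below those of protein-coding genes, of which 60.2% had a row, with a median of 21.3 TPM.

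Of 11 alveolar type I markers, 6 were listed, with a median of 84.7 TPM. The caveolins CAV1 (431 TPM) and CAV2 (135 TPM) and the semaphorin SEMA3B (127 TPM) led, EMP2 had 42.3 TPM and RTKN2 had 9.99 TPM. AGER, the receptor most used to mark type I cells, stood at 5.50 TPM (4.51 to 6.64) from 107 reads, and AQP5, HOPX and PDPN had no row. The caveolins, which coat membrane pits, are known to be abundant in many other cell types too.

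Markers of other lung and tumour lineages were uneven. Of these lists, only the basal and squamous one had a member with at least 100 TPM. Airway secretory cells were represented by 2 of 14 genes, the protease inhibitor SLPI at 20.8 TPM and LCN2 at 1.07 TPM, and the secretoglobins and gel-forming mucins had no row. Ciliated cells had 6 of 11 genes listed with a median of 4.19 TPM. The highest were the calcium-binding protein CAPS (17.3 to 20.8 TPM) and CCDC78 (13.7 TPM), and their regulator FOXJ1 stood at 3.26 TPM from 79 reads. Of 15 basal and squamous genes, 8 were listed: S100A2 had 125 TPM, the cornified envelope protein IVL 31.0 TPM, the squamous factor TP63 12.8 TPM and KRT15 10.9 TPM, while KRT5, KRT14 and DSG3 had no row. Of 15 neuroendocrine genes, 5 were listed, with ENO2 at 53.1 TPM, DLL3 at 3.83 TPM and synaptophysin, SYP, at 1.62 TPM. The neuroendocrine regulators NEUROD1 and INSM1 and the granule protein CHGA had no row. None of 18 hepatic and intestinal genes had a row.

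Of 40 lineage transcription factors, 30 were listed, 25 had at least 10 TPM, and the median was 26.3 TPM. CEBPB was highest at 132 TPM (126 to 137), and the epithelial factor TFAP2C had 78.0 TPM. SOX9, a factor of distal lung progenitors, had 68.8 TPM, KLF4 67.5 TPM and the cell cycle factor FOXM1 63.2 TPM. FOXA1 and GATA3 had no row, and the lowest listed factors were EHF (1.06 TPM), PAX8 (2.14 TPM) and GATA6 (3.40 TPM).

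Markers of blood, vessel and stromal cells, which a pure line should lack, were checked as a whole. Of 61 such genes 12 were listed (19.7%), 3 had at least 10 TPM and 0 had at least 100 TPM. The 3 were the B cell receptor component CD79A (46.0 TPM, 580 reads), the macrophage growth factor receptor CSF1R (21.9 TPM) and the lipopolysaccharide co-receptor CD14 (20.2 TPM). Fibroblast and mural markers had 3 of 12 genes listed, from ACTA2 at 1.86 TPM to COL1A1 at 4.27 TPM (361 reads). Endothelial markers had 3 of 10 genes listed, from KDR at 0.925 TPM up to 4.47 TPM. Markers without a row included PTPRC, CD3D, CD3E and MS4A1 of lymphocytes and CD163 and TYROBP of macrophages. PECAM1 and VWF of endothelium, and COL1A2, COL3A1 and DCN of fibroblasts, had no row either. All 7 erythroid genes and all 14 germline and pluripotency genes also had no row.

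**Figure D2:**
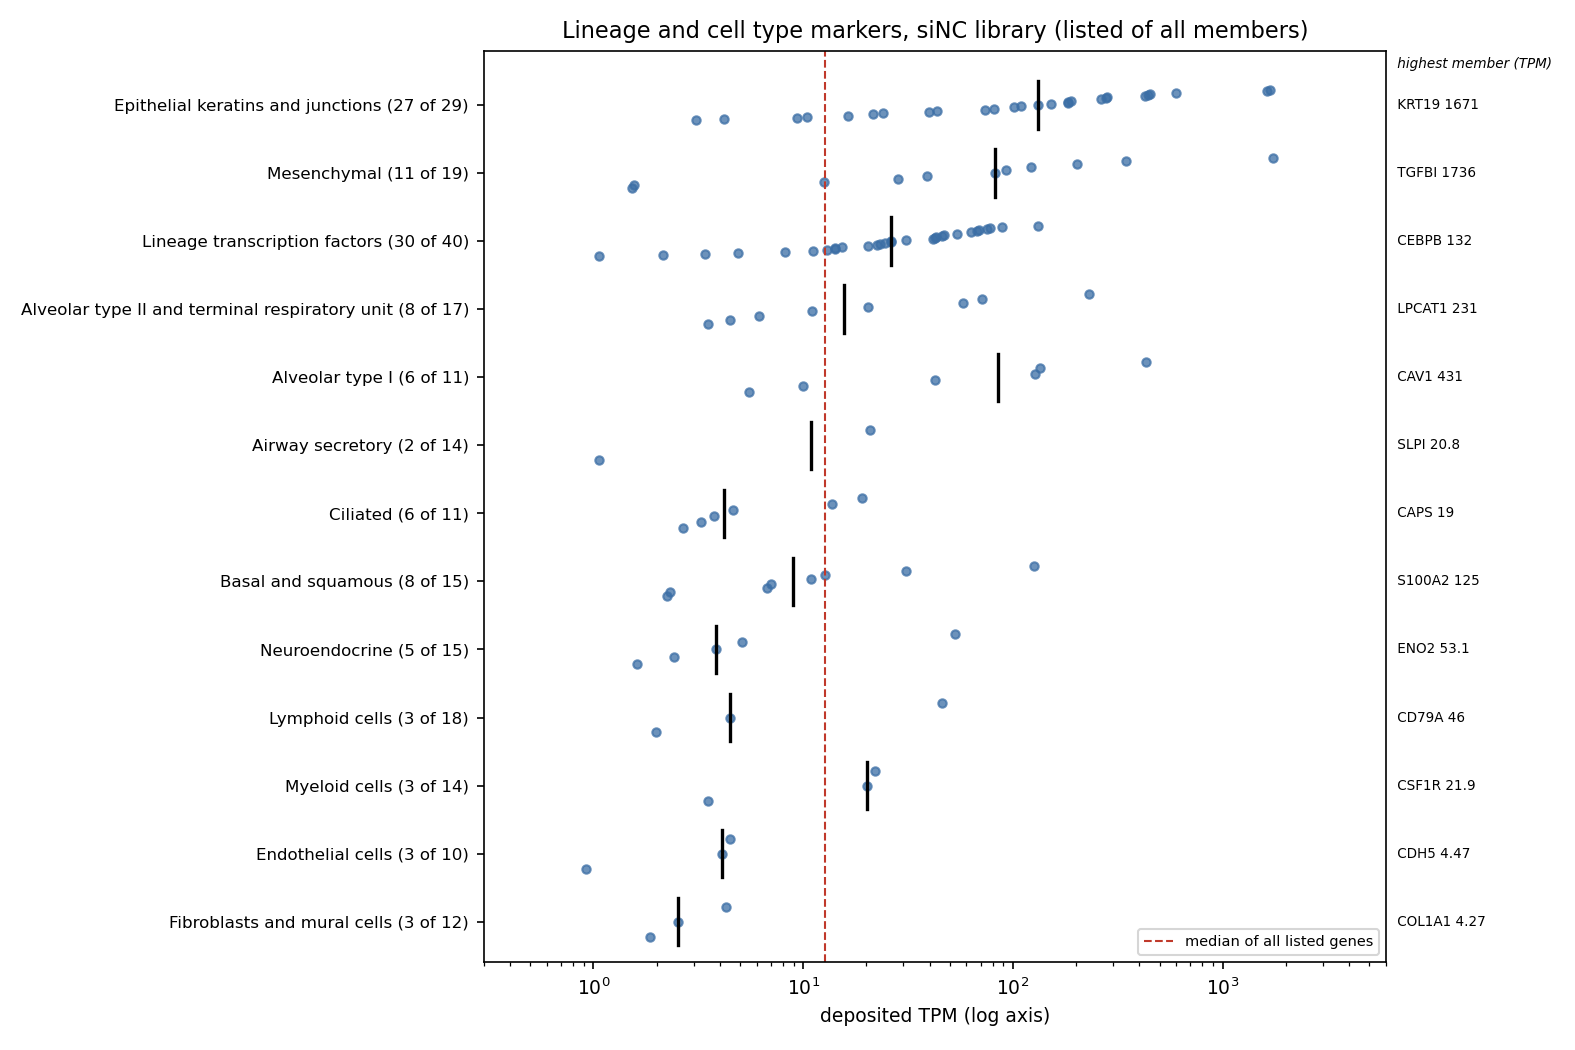
Deposited TPM on a log axis for each listed member (points) of 13 marker lists, with the list median (black bar) and the median of all listed genes (dashed line, 12.7 TPM); the highest member of each list is named at the right. Epithelial genes had a median of 131 TPM, and the lists of blood, endothelial and fibroblast markers had 3 listed members each. The median of listed protein-coding genes, not drawn, was 21.3 TPM.

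The ERBB family consists of EGFR and its relatives ERBB2, ERBB3 and ERBB4, which pair with each other when bound by growth factors of the EGF family. EGFR had 88.7 TPM (87.0 to 90.4) from 10405 reads, above 89.2% of listed genes. ERBB2 had 42.5 TPM (41.2 to 43.8) and ERBB3, a receptor with little kinase activity of its own, had 33.5 TPM (32.4 to 34.6), and ERBB4 had no row. The 3 intervals did not overlap, so the order EGFR, ERBB2, ERBB3 exceeded counting error. Per coding transcript the levels were 69.5, 59.4 and 40.8 TPM in the same order.

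Of 11 ERBB ligand genes 6 were listed. Epiregulin, EREG, had 42.3 TPM (40.6 to 44.1), amphiregulin, AREG, 31.6 TPM (28.9 to 34.6) and TGFA 20.1 TPM (18.8 to 21.4). HBEGF stood at 9.49 TPM, BTC at 7.76 TPM and NRG1, a ligand of ERBB3 and ERBB4, at 3.25 TPM, and EGF itself had no row. EREG, AREG, TGFA and HBEGF were separated beyond counting error in that order, while the intervals of HBEGF and BTC overlapped. The order depended on the length used: per coding transcript TGFA stood at 61.7 TPM and NRG1 at 17.0 TPM, while AREG had 33.4 TPM and EREG 32.2 TPM.

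Among 37 other receptor tyrosine kinases, 22 were listed, 15 had at least 10 TPM and 3 at least 100 TPM, and the median was 16.1 TPM. The ephrin receptor EPHA2 had 182 TPM (178 to 186), the hepatocyte growth factor receptor MET 144 TPM (141 to 147) and EPHB4 121 TPM (119 to 124), all above EGFR. MST1R, the relative of MET, followed at 49.3 TPM, and IGF1R stood at 17.9 TPM and AXL at 4.40 TPM. Per coding transcript MET had 138 TPM and EPHA2 117 TPM, so their order turned, and DDR1 (70.9 TPM) came level with EGFR (69.5 TPM). The kinases known from fusions in lung adenocarcinoma, ALK, RET, NTRK2 and NTRK3, had no row, and ROS1 stood at 0.935 TPM (0.739 to 1.17) from 78 reads. KIT, PDGFRA, PDGFRB and FGFR2 also had no row.

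**Figure D3:**
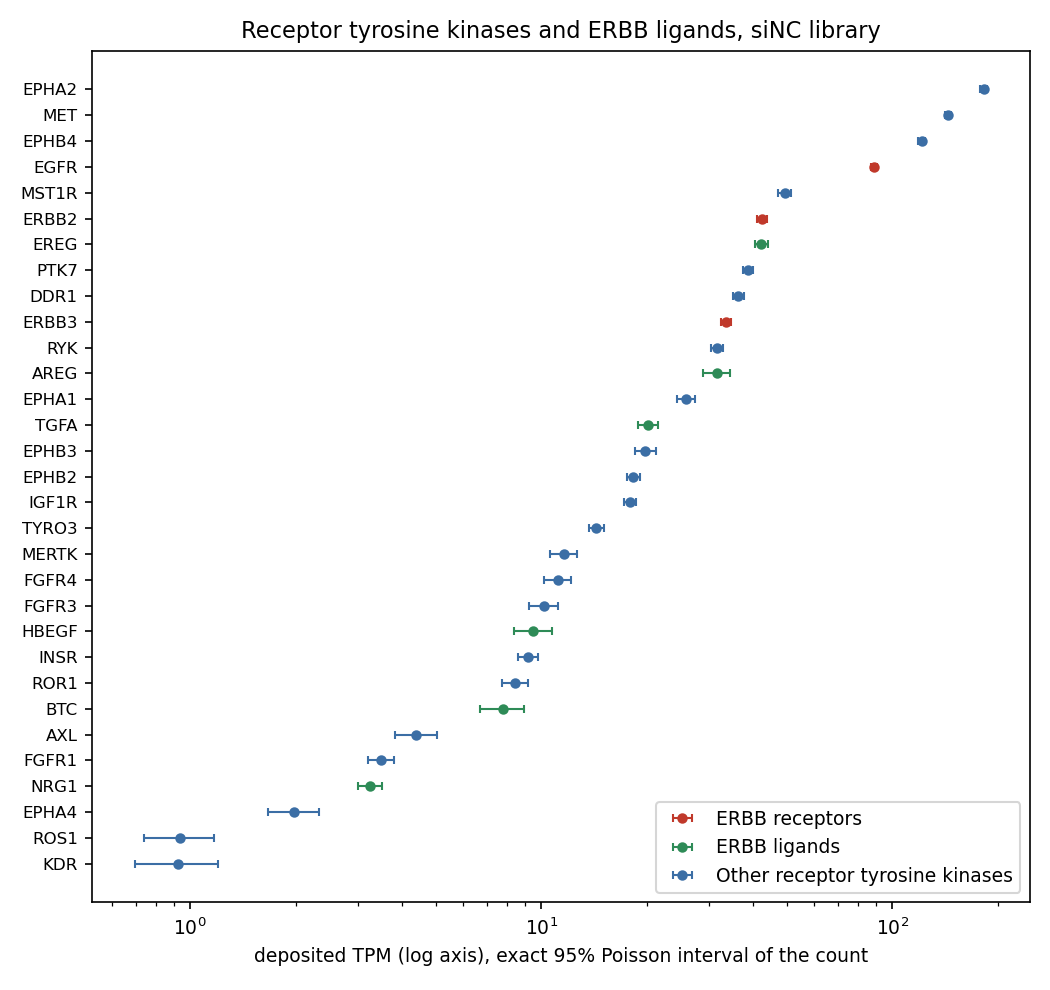
Deposited TPM (log axis) of the listed ERBB receptors, ERBB ligands and other receptor tyrosine kinases, in order of level, with exact 95% Poisson intervals of the count. EPHA2, MET and EPHB4 lie above EGFR, and intervals of EGFR (87.0 to 90.4 TPM), ERBB2 and ERBB3 do not overlap.

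Downstream of the receptors, all 18 genes of the RAS, RAF and MAPK list were listed, with a median of 50.2 TPM. The kinase MAP2K2 had 151 TPM and the adaptors GRB2 and SHC1 had 142 and 141 TPM. Of the RAS genes, NRAS had 71.2 TPM and HRAS 45.6 TPM, and the kinase BRAF was the lowest of the list at 5.97 TPM. The level of BRAF depended on the length used and was 33.8 TPM per coding transcript, where NRAS had 42.6 TPM. All 16 genes of MAPK output and feedback were listed. The AP-1 subunit FOSL1 had 299 TPM, the EGFR inhibitor ERRFI1 242 TPM, cyclin D1, CCND1, 236 TPM and the phosphatase DUSP5 119 TPM. In contrast, DUSP6, the phosphatase that acts on ERK, had 2.98 TPM (2.45 to 3.60), with 40.5% of its exonic bases shared with another gene, and SPRY1 had 1.67 TPM. Of 17 PI3K and mTOR genes 15 were listed with a median of 18.2 TPM, led by RHEB (170 TPM) and AKT1 (58.8 TPM). The catalytic subunit PIK3CA had 9.84 TPM, with 35.8% of its exonic bases shared with another gene.

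Of 19 oncogenes and genes amplified in lung adenocarcinoma, 15 were listed, with a median of 55.4 TPM. The survival factor MCL1 had 334 TPM, MYC 268 TPM (263 to 273), CDK4 159 TPM and CRKL 155 TPM, while MYCL stood at 1.47 TPM and MYCN, CCND2, TERT and BCL2 had no row. Of 26 tumour suppressors 23 were listed with a median of 26.3 TPM. The cell cycle inhibitor CDKN1A had 178 TPM, KEAP1, which marks the oxidative stress factor NRF2 for degradation, 106 TPM and SMARCA4 69.2 TPM. STK11 had 42.3 TPM, CDKN2A 31.8 TPM, RB1 25.7 TPM and ATM 4.86 TPM, and PTPRD, LRP1B and FHIT had no row. These are levels of RNA and carry no information on mutations of the genes.

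All 18 proliferation genes had at least 10 TPM and 16 had at least 100 TPM, with a median of 168 TPM. The DNA polymerase clamp PCNA had 680 TPM, cyclin B1, CCNB1, 567 TPM, the helicase subunit MCM7 481 TPM, TOP2A 407 TPM and MKI67 226 TPM. TYMS, the target of antifolate drugs, was the lowest at 29.2 TPM, with 46.6% of its exonic bases shared with ENOSF1. Of 20 enzymes induced by NRF2, 18 were listed, with a median of 124 TPM. The haem-degrading enzyme HMOX1 had 2409 TPM, thioredoxin, TXN, 967 TPM and NQO1 578 TPM, but the aldo-keto reductases AKR1B10 and AKR1C1 stood at 6.19 and 1.68 TPM. All 19 glycolysis genes were listed with a median of 155 TPM, led by GAPDH, ENO1 (2441 TPM) and LDHA (1244 TPM). LDHB had 6.54 TPM and ALDOA 18.9 TPM, and 53.5% of the exonic bases of ALDOA were shared with another annotated gene.

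Of 24 surface antigens that serve as drug targets, 17 were listed and 7 had at least 100 TPM. EPCAM (601 TPM), P-cadherin CDH3 (336 TPM), the transferrin receptor TFRC (320 TPM) and CD44 (256 TPM) were highest. CEACAM5, CEACAM6, FOLR1, MSLN and CLDN18 had no row. Of 25 TGF-beta, BMP, WNT and Notch receptors 22 were listed with a median of 17.4 TPM, and 0 had at least 100 TPM; FZD6 was highest at 77.4 TPM. Among 28 cytokine and death receptors, 23 were listed, with TNFRSF12A, the receptor of TWEAK, at 487 TPM, TNFRSF1A at 134 TPM and the death receptor TNFRSF10B at 83.7 TPM.

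The interferon-stimulated genes chosen for this list stood high as a group, but the choice was made with earlier results of these data known. All 30 were listed, all 30 had at least 10 TPM and 20 had at least 100 TPM, with a median of 152 TPM, and together they took 1.17% of the TPM. ISG15, a ubiquitin-like modifier, had 3478 TPM (3438 to 3519) from 28282 reads and was the 21st gene of the library, or the 7th with mitochondrial genes left out. IFI6 followed at 1886 TPM (1857 to 1915). The RNA-binding antiviral proteins IFIT1 and IFIT3 had 593 and 569 TPM, the virion tether BST2 575 TPM, and the membrane protein IFITM3 524 TPM. The lowest members were SAMD9L (35.3 TPM), EPSTI1 (36.0 TPM), MX2 (42.9 TPM) and RSAD2 (43.7 TPM), each above the median of all listed genes. Per coding transcript ISG15 had 2609 TPM, and IFI27 had 1718 TPM in place of 488 TPM. Whether transfection bears on these levels was not tested.

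The genes that make and relay the signal were unequal. Interferon genes were low: IFNL1 had 7.84 TPM (5.94 to 10.2) from 57 reads, IFNE 2.82 TPM from 39 reads, and IFNB1 1.27 TPM (0.609 to 2.34) from 10 reads. IFNL2 and IFNL3, which are near-identical copies and therefore uncertain, had 13 and 11 reads, and IFNA1, IFNA2, IFNG and IFNK had no row. Of 20 sensors and interferon factors 18 were listed with a median of 76.6 TPM. ADAR, which edits double-stranded RNA, had 406 TPM, the RNA sensor IFIH1 180 TPM, IRF7 172 TPM, the DNA sensor AIM2 155 TPM and the kinase EIF2AK2 133 TPM. STAT2 had 92.9 TPM, while its partner IRF9 had 9.58 TPM (8.57 to 10.7), with 48.4% of its exonic bases shared with another gene. The RNA sensor RIGI, named DDX58 in the table, had 5.10 TPM and TLR3 0.856 TPM. Of the receptors, IFNAR1 had 25.8 TPM, IFNGR1 45.9 TPM and IFNLR1 4.19 TPM, and IFNAR2 and IL10RB had no row.

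**Figure D4:**
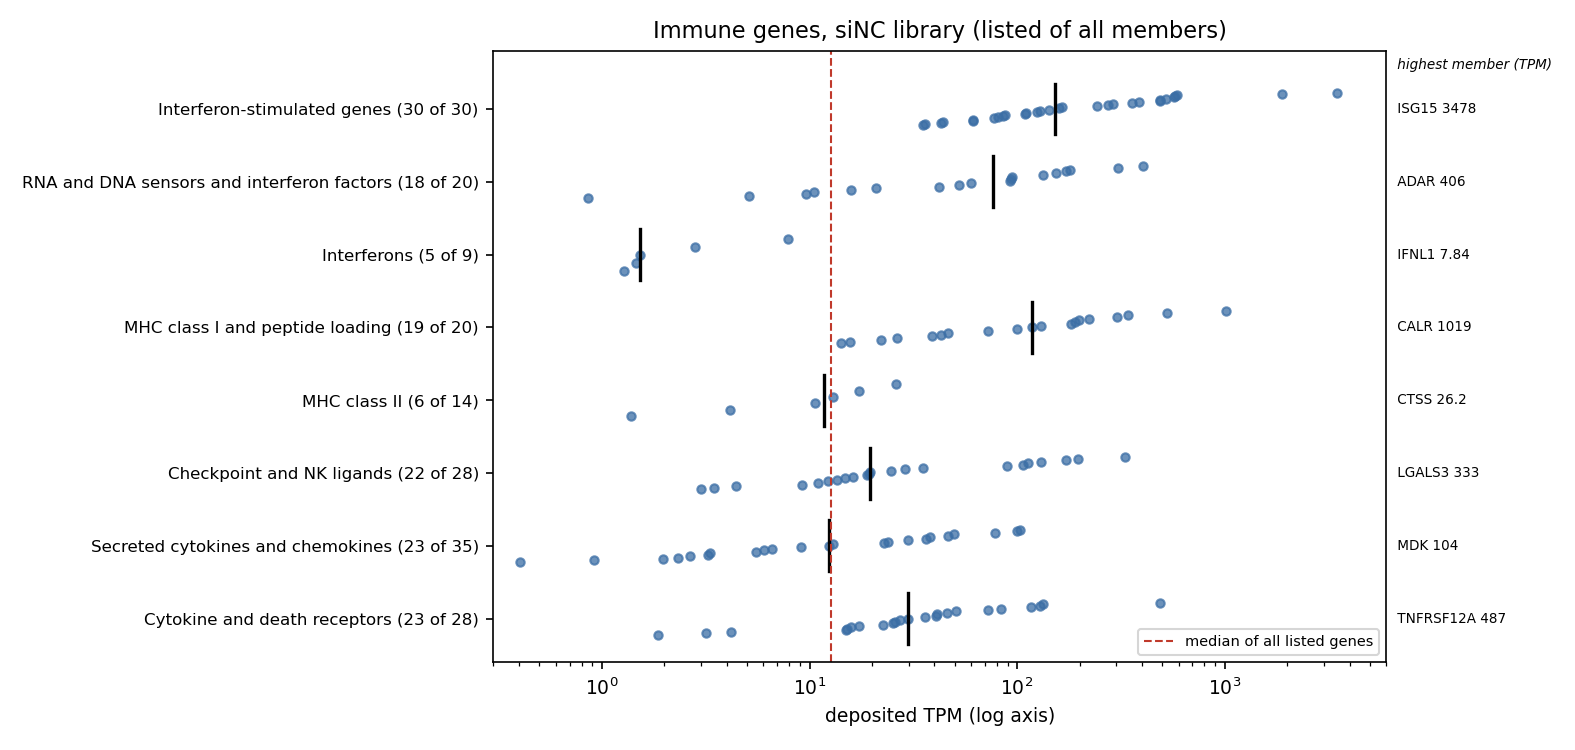
Deposited TPM on a log axis for each listed member (points) of 8 immune gene lists, with the list median (black bar) and the median of all listed genes (dashed line, 12.7 TPM); the highest member of each list is named at the right. Interferon-stimulated genes lie between 35.3 and 3478 TPM and interferons between 1.27 and 7.84 TPM. The median of listed protein-coding genes, not drawn, was 21.3 TPM.

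Promoters were compared by sequence with a RefSeq table of GRCh38.p14, which covers 250 bases before to 50 bases after a start. Entries were matched by symbol for 10281 of the listed genes (61.7%), and the first listed start was used. The core of the response element was searched as GAAANNGAAA on both strands, where N is any base. It was found in 17 of the 24 interferon-stimulated genes with an entry (70.8%), against 297 of 10281 promoters of listed genes (2.89%) and 3.65% of all promoters in the table. With any annotated start the counts were 19 of 24 (79.2%) and 402 of 10281 (3.91%). USP18, IFIT2, OASL, OAS2, IFITM2 and MX2 had no entry. Windows of 50 bases around the upstream match nearest the start are shown for the 6 most abundant of these genes, on the strand of the gene, with the core in capitals:
ISG15 (chr1:1013370-1013419, plus strand): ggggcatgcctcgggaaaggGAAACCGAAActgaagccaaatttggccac
IFI6 (chr1:27672256-27672305, minus strand): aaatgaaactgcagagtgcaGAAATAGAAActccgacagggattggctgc
IFIT1 (chr10:89392500-89392549, plus strand): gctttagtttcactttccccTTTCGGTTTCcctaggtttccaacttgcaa
BST2 (chr19:17405725-17405774, minus strand): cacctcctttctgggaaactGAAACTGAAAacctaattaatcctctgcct
IFIT3 (chr10:89327855-89327904, plus strand): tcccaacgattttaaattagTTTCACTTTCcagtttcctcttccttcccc
IFITM3 (chr11:320866-320915, minus strand): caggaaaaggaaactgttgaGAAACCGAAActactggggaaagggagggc

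All 6 windows lie upstream of the start. ISG15, IFI6, BST2 and IFITM3 carry the core on the strand of the gene. IFIT1 and IFIT3 carry it on the opposite strand, so that it is printed here from TTTC to TTTC. In the other immune lists the core was found in 7 of 15 promoters of MHC class I and peptide loading genes, 4 of 10 of sensors and interferon factors, 3 of 5 of interferon genes and 4 of 18 of checkpoint and NK ligands. It was found in 1 of 18 promoters of cytokine and death receptors, in 0 of 15 of secreted cytokines and chemokines and in 0 of 3 of MHC class II genes. These matches describe letters in a window and were not tested as binding sites.

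Genes of MHC class I, which shows peptides of the cell's own proteins to cytotoxic T cells, were abundant. Of 20 genes of MHC class I and peptide loading 19 were listed, all 19 had at least 10 TPM and 11 at least 100 TPM, with a median of 118 TPM. The light chain B2M had 526 TPM, and the heavy chains HLA-E, HLA-B and HLA-C had 343, 303 and 191 TPM. The heavy chain genes are similar to each other and differ between people, so the division of reads among them is uncertain. The chaperone CALR had 1019 TPM, the peptide transporter TAP1 130 TPM, and NLRC5, which activates the class I genes, 46.4 TPM. MHC class II was lower, with 6 of 14 genes listed and a median of 11.8 TPM: CTSS had 26.2 TPM, CD74 17.3 TPM, HLA-DRA 12.9 TPM, and the regulator CIITA 4.15 TPM, while HLA-DRB1 and HLA-DPB1 had no row.

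Of 28 ligands of immune checkpoints and NK cell receptors, 22 were listed with a median of 19.5 TPM. Galectin 3, LGALS3, had 333 TPM, CD70 197 TPM, the adenosine-producing NT5E 172 TPM, the TIGIT ligand PVR 131 TPM and TNFSF9 113 TPM. CD47, which signals to macrophages, had 89.1 TPM, and CD274, which encodes PD-L1, had 35.3 TPM (33.5 to 37.3), above 73.7% of listed genes. PDCD1LG2, which encodes PD-L2, stood at 9.16 TPM, and CD80 and CD86 had no row. Among 35 secreted cytokines and chemokines, 23 were listed and 12 had at least 10 TPM. That share was near the 55.0% of all listed genes but below the 70.1% of listed protein-coding genes. MDK (104 TPM), LIF (100 TPM) and GDF15 (78.6 TPM) were highest, CCL5 had 38.3 TPM, IL18 36.5 TPM and CXCL8 22.9 TPM. The chemokines CXCL9, CXCL10 and CCL2 had no row, and CCL20 had 0.401 TPM from 6 reads.

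Across the 10281 listed genes with a promoter entry, coding or not, promoters of abundant genes were richer in CpG in the median. The ratio of CpG observed to CpG expected from the base composition had a median of 0.874 for 1218 genes with at least 100 TPM and of 0.760 for 1968 genes under 5 TPM, a difference of 0.114. The spreads overlapped: quartiles were 0.433 and 0.900 under 5 TPM, and 0.746 and 0.984 at 100 to 1000 TPM. The median at 1000 TPM and above was 0.870. Promoters whose symbol matched no listed gene name had a median of 0.310, and those of interferon-stimulated genes had a median of 0.351. The unmatched promoters can include genes that are listed under another symbol. The TATA box, searched as TATAAA between 50 and 15 bases upstream of the start on the strand of the gene, was found in 184 promoters of listed genes (1.79%). It was found in 7 of 10 promoters of replication-dependent histone genes and in 3 of the 45 promoters of genes with at least 1000 TPM. The 3 are shown as windows of 35 bases that end 15 bases before the start, with the match in capitals:
EEF2 (chr19:3985479-3985513, minus strand): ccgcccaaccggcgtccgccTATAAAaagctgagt
MT2A (chr16:56608534-56608568, plus strand): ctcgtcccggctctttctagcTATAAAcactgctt
CALR (chr19:12938559-12938593, plus strand): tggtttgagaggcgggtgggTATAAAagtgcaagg

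EEF2, MT2A and CALR encode a translation factor, a metallothionein and a chaperone, and their matches began 30, 29 and 30 bases upstream of the start.

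Coding genes that share more than 25% of their exonic bases with another annotated gene had lower levels. The median was 23.7 TPM for 6163 listed coding genes without overlap. At up to 10% of exonic bases shared it was 21.5 TPM (3567 genes), and at 10 to 25% it was 19.7 TPM (1426 genes). It was 10.9 TPM for 654 genes with 25 to 50% shared, and 3.11 TPM for 47 genes with 75 to 100% shared. The share of coding genes with a row was 55.5% without overlap and 74.0% at up to 10% overlap. It was 76.0% at 10 to 25%, 63.9% at 25 to 50% and 6.42% at 75 to 100%. Of 151 genes for proteasome subunits, NADH dehydrogenase subunits and mitochondrial ribosomal proteins, which nearly every cell expresses, 5 had no row. They were PSMD9, NDUFV2 and MRPL53, which share 22.6%, 28.4% and 45.2% of their exonic bases with another gene, and PSMA8 and PSMB11, which share none and are used in testis and thymus. The sources used here do not say how reads in shared exons were counted, so low levels of overlapped genes, such as DUSP6, IRF9, TYMS and ALDOA above, are uncertain.

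**Figure D5:**
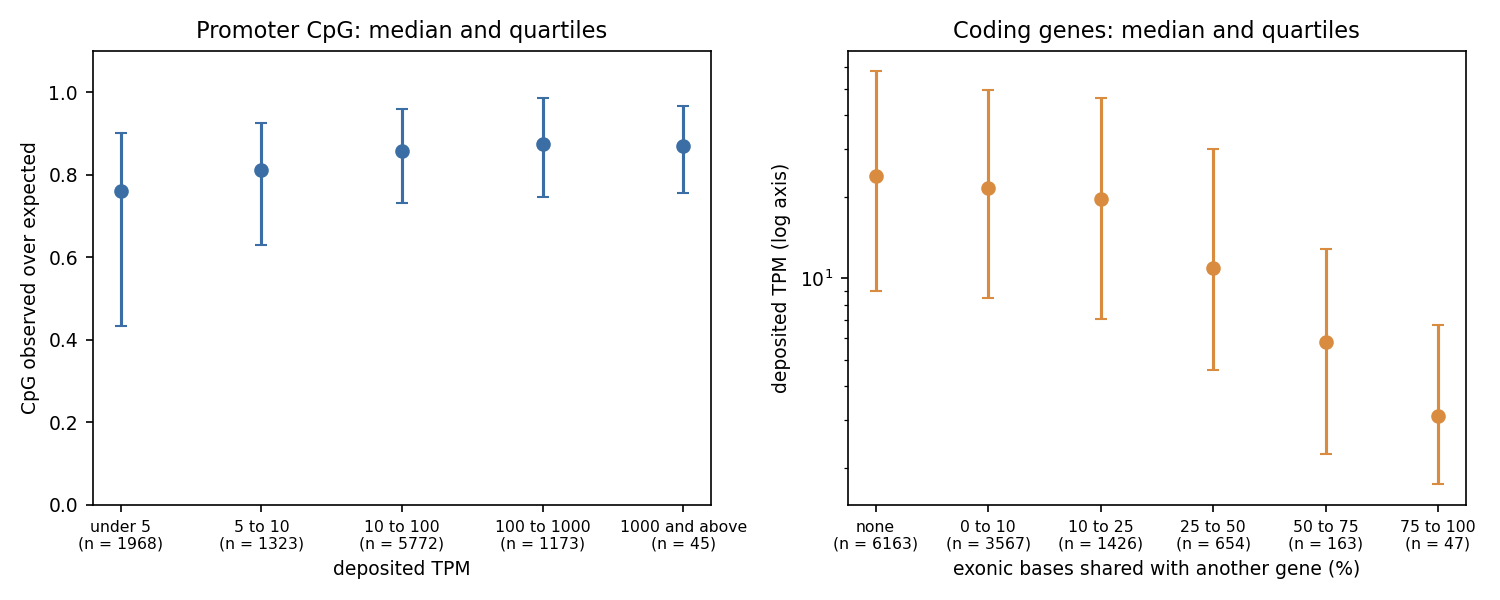
Left, median and quartiles of the CpG observed to expected ratio of promoters by class of deposited TPM. Right, median and quartiles of deposited TPM (log axis) of coding genes by the percentage of exonic bases shared with another gene; medians fall from 23.7 TPM without overlap to 3.11 TPM at 75 to 100%.

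HHLA3, the gene targeted in the other libraries, had 16.8 TPM (14.5 to 19.3) from 192 reads in siNC, above 56.1% of listed genes. It shared no exonic bases with another gene. HHLA1 and HHLA2 had no row.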

How the data were processed

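Total RNA was extracted with Trizol, treated with DNase I and sequenced on an Illumina instrument from 1 ug, per the labels' protocols. The authors deposited 1 table, in which each library has 4 columns. Counts, as deposited, are reads assigned to a gene and hold whole numbers without scaling. The CPM column, as the authors deposited it, divides these counts by the library total. FPKM and TPM were deposited as computed by the authors and divide by the length of the gene as well. In 69.7% of 16275 genes the implied length agreed within 1% with the union of exons in GENCODE 29. The submitters' processing notes name HISAT2, HISAT, TopHat2, Bowtie2 and the build hg19, with no version. The counter, its annotation and its strand setting are not given in the sources used here.

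Only the siNC columns were described. Of the rows, 16509 were Ensembl genes and 153 were assembled loci, and GENCODE 29 held 98.1% of all rows. Genes without a row took 0.305% of reads. Intervals and the floor of 3 counts cover counting error only. With 1 library there is no replicate and no test was made. The members of all 46 gene lists were chosen with earlier results of these data known.

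Genes named in the text are the 25 of highest TPM and the 5 noncoding genes of highest TPM with a usual symbol. For these 5, mitochondrial genes, pseudogenes, small RNA classes such as microRNA, and clone or LINC names were set aside. For each list, up to 8 highest and 6 lowest members are named, or every listed member in lists of up to 12. Some genes under this rule are not reported here. Other members are named as examples chosen after their values were seen. Alternatives were other levels and units, removal of mitochondrial genes, the lower bound of the counting interval, the length of the coding transcript, and any annotated start. Python 3.11.15, numpy 2.4.6, scipy 1.17.1, pandas 2.3.3 and matplotlib 3.10.9 were used, and the routines were tested on simulated data.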

Additional observations from a re-analysis of the deposited data

How the results depend on the processing

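At or above 1 TPM there were 16235 genes. At 10 TPM, a level added after the data were seen, there were 9163, and the other levels, units, scaling and counting bound gave between 11411 and 16575. The share held by the 10 highest genes moved from 21.2% of TPM to 6.84% of reads, 5.75% without mitochondrial genes, 26.7% for 20 genes, and 13.2% per coding transcript, an alternative added after the data were seen. Of listed genes, 517 had up to 3 counts, 63 had 0 and 1343 fewer than 10. There were 542 list members at or above 1 TPM and between 422 and 534 under the alternatives, which need not be the same members. The CpG difference of 0.114 became 0.111 with at least 10 counts and 0.165 with classes by CPM. Per coding transcript, 49.7% of 16275 genes stayed within 1.5-fold of the deposited TPM. The rank correlation across genes, which share the library, was 0.956. These levels were rescaled to a common sum, and their median ratio to the deposited TPM was 0.797. The 49.7% therefore mixes this rescaling with changes of length. No paired analysis was possible because 1 library was described.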

Other observations

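Noncoding transcripts took a small share of the library. Pseudogenes set aside, the highest was the mitochondrial transfer RNA gene MT-TP, with 4668 TPM from 2977 reads. Mitochondrial genes, small RNA classes such as microRNA, small nuclear and small nucleolar RNA, and genes with clone or LINC names were not ranked further. Among the other noncoding genes, pseudogenes aside, the highest was UCA1, with 352 TPM (346 to 358) from 13720 reads. UCA1 is a long noncoding RNA first found in bladder cancer. UCA1 was followed by RN7SL1 of the signal recognition particle (336 TPM), SNHG6 (252 TPM), NORAD (238 TPM) and SNHG19 (139 TPM). RN7SL1 has near-identical copies and is uncertain. The nuclear RNAs MALAT1 and NEAT1, which are among the most abundant long noncoding RNAs of many cells, had 34.3 and 11.2 TPM. PVT1 had 47.6 TPM over all its exons and 430 TPM per transcript length, so its level rested on the length used. The 982 antisense genes had a median of 2.36 TPM and the 698 lincRNA genes a median of 2.58 TPM.

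Some genes grouped as cancer-testis or oncofetal were present. Of 30 cancer-testis and oncofetal genes, 13 were listed and 7 had at least 10 TPM. These 7 of 13 were near the 55.0% of all listed genes and below the 70.1% of listed protein-coding genes. The chromatin protein HMGA1 had 1197 TPM, the retrotransposon-derived PEG10 705 TPM, PRAME 56.3 TPM and the RNA-binding protein IGF2BP2 50.5 TPM. XAGE1B had 136 TPM and its copy XAGE1A 10.4 TPM, and the division of reads between them is uncertain. MAGEA4 stood at 3.70 TPM, and CTAG1B, LIN28A, LIN28B and AFP had no row. Of 26 nuclear receptors 16 were listed: the retinoic acid receptor RARG had 124 TPM, ESRRA 71.7 TPM and the glucocorticoid receptor NR3C1 57.3 TPM, while ESR1 and PGR had no row and ESR2 had 1.56 TPM.

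The 153 loci assembled from the reads, which carry no gene name, held 0.300% of the TPM and 0.181% of the reads. Of these, 3 had at least 100 TPM, and the highest had 999 TPM from 3655 reads over 390 bases. Cytochrome P450 enzymes had 17 of 55 genes listed, 7 with at least 10 TPM and 0 with at least 100 TPM, led by the retinoic acid hydroxylase CYP26B1 at 59.1 TPM.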
